A study of Mus musculus with 21 samples.

Results

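Axon guidance genes encode the ligands and receptors by which growing axons, and also migrating cells and vessel sprouts, are attracted or repelled. Secreted class 3 semaphorins are bound by neuropilins that signal through plexins, the other semaphorins bind plexins directly, ephrins on 1 cell bind Eph receptor kinases on its neighbour, Slits are ligands of Robo receptors, and netrins are ligands of Unc5 receptors and DCC. In blood vessels some of these pairs are classical identity genes: ephrin-B2 marks arterial and EphB4 venous endothelium, and neuropilins are also coreceptors of VEGF.

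The rule that lists the genes described here uses gene symbols only, and takes all class 3 to class 7 semaphorins, plexins, neuropilins, Eph receptors, ephrins, Slits, Robo and Unc5 receptors and netrins. There were 68 of them. All 68 were among the 22899 genes of the coculture table, and 66 were among the 27968 genes of the sorted-cell table, where Ntn3 and Epha6 were not analysed. The 68 are 7 class 3 semaphorins, 13 membrane-bound semaphorins, 9 plexins, 2 neuropilins, 9 EphA and 5 EphB receptors, 5 A-type and 3 B-type ephrins, 3 Slits, 4 Robo receptors, 4 Unc5 receptors and 4 netrins.

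The study made HSC-like cells from mouse PSCs in a 3D self-assembling peptide culture and measured RNA in 21 libraries, 3 per group. In the coculture table, 3D+OP9 and 3D+0.1% gelatin are total cells on day 5 after the colonies of the 3D culture, derived from 129/ola PSCs, were moved onto OP9 stromal cells (treated with mitomycin C) or onto 0.1% gelatin. The sorted-cell table holds mESC, D5-LSKCD201+, D5-LSKCD201-, FL-LSKCD201+ and BM-LSKCD201+, where LSK means Lin-Sca-1+c-kit+ and CD201 is the endothelial protein C receptor. The mESC are undifferentiated 129/ola cells that were grown on embryonic fibroblasts and sorted with SSEA-1, and both D5 groups were sorted on day 5 from the 129/ola coculture on OP9. FL-LSKCD201+ came from fetal liver at E12.5 and BM-LSKCD201+ from adult bone marrow at 6 to 8 weeks, both of C57BL/6 mice. Strain, tissue and culture therefore differ together between the D5 cells and the cells from mice and cannot be told apart.

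Levels are FPKM, mapped fragments per gene scaled to transcript length and library size, so they can be set side by side between genes. Differences are in log2(FPKM + 1), which understates the change of genes near or under 1 FPKM. A gene was called higher or lower at an adjusted p under 0.05 with a log2 difference of at least 1, and genes whose mean over both groups was under 0.5 FPKM were left out of the test. The study calls the sorted-cell replicates biological, and the legends of figures with RNA-seq panels speak of independent experiments. Neither the study nor the labels say which culture or animal each library came from, so p-values measure the spread between these libraries only. In bulk RNA, fewer cells that express a gene and less RNA per cell cannot be told apart.

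In 4 groups 1 library stood apart from the other 2 over all genes: 3D+OP9 replicate 3, D5-LSKCD201- replicate 2, FL-LSKCD201+ replicate 1 and BM-LSKCD201+ replicate 1. The SD of the log2 difference between the closer libraries was 0.148 to 0.170 there, against 0.353 to 0.475 to the library apart. The sorted groups were checked against the marker lists. D5-LSKCD201+ held 2798 to 2892 FPKM summed over 10 endothelial genes, against 470 to 505 in FL-LSKCD201+ and 322 to 365 in BM-LSKCD201+. Ptprc, which encodes the pan-leukocyte antigen CD45, was at 0.305, 0.321 and 0.602 FPKM in D5-LSKCD201+, at 0.419, 0.935 and 0.545 FPKM in D5-LSKCD201-, at 52.1, 38.4 and 39.9 FPKM in FL-LSKCD201+ and at 71.6, 64.3 and 64.4 FPKM in BM-LSKCD201+. The whole list of 9 hematopoietic markers, with Itga2b, Cd34 and Procr in it, summed to 446 to 450 FPKM in D5-LSKCD201+, 98.2 to 102 FPKM in D5-LSKCD201-, 593 to 681 FPKM in FL-LSKCD201+ and 1215 to 1280 FPKM in BM-LSKCD201+. D5-LSKCD201- held 618 to 673 FPKM summed over 5 pluripotency genes, against 1162 to 1196 in mESC and 5.67 to 5.94 in D5-LSKCD201+.

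Over the sorted cells, the guidance genes were carried most by D5-LSKCD201+. Their FPKM summed to 533, 543 and 540 in its libraries, to 219, 135 and 215 in D5-LSKCD201-, to 130, 132 and 129 in mESC, to 98.4, 91 and 90.4 in BM-LSKCD201+ and to 91.5, 84.6 and 80.5 in FL-LSKCD201+. The D5-LSKCD201+ libraries lay above all others and close to each other, and D5-LSKCD201- replicate 2 lay far under its group. Efna1 alone made up 34.6% of the D5-LSKCD201+ sum. The number of genes in use went another way. D5-LSKCD201- had 39 of the 66 genes at a mean of 1 FPKM or more (59.1%, against 43.5% of all genes), mESC had 27 (40.9%, against 40.5%), D5-LSKCD201+ had 25 (37.9%, against 40.6%), and FL-LSKCD201+ and BM-LSKCD201+ had 19 each (28.8%, against 42.5% and 43.2%). At 5 FPKM or more the order changed, with 17 genes in D5-LSKCD201+ (25.8%, against 28.5% of all genes), 11 in D5-LSKCD201- (16.7%, against 29.2%), 6 in mESC (9.09%, against 27.5%), 5 in BM-LSKCD201+ (7.58%, against 31.2%) and 4 in FL-LSKCD201+ (6.06%, against 29.9%). In each group this share was under that of all genes.

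Of the 66, 19 had a mean under 1 FPKM in every sorted group, among them Robo2 and Robo3, which are best known from neurons, the netrins Ntn4 and Ntn5, and the netrin receptors Unc5c and Unc5d. The other 47 were sorted by the group with the highest mean. That was D5-LSKCD201+ for 17: the ligands Efna1, Efnb2, Efnb3, Sema3a, Sema3f, Sema3g, Sema4c, Sema6a, Sema6b, Sema6d and Slit2 and the receptors Ephb4, Nrp1, Nrp2, Plxnd1, Robo4 and Unc5b. It was D5-LSKCD201- for 15, with Efna3, Efna4, Efna5, Epha1, Epha4, Epha7, Ephb3, Ntn1 and Slit1 among them, and mESC for 9, with Epha2, Sema4a and Sema4b. BM-LSKCD201+ was highest for 5 (Ephb6, Plxna3, Plxnc1, Sema3d and Unc5a) and FL-LSKCD201+ for Sema4d alone. These are orders of means, and neighbours in them were not all apart beyond their spread.

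**Figure D1:**
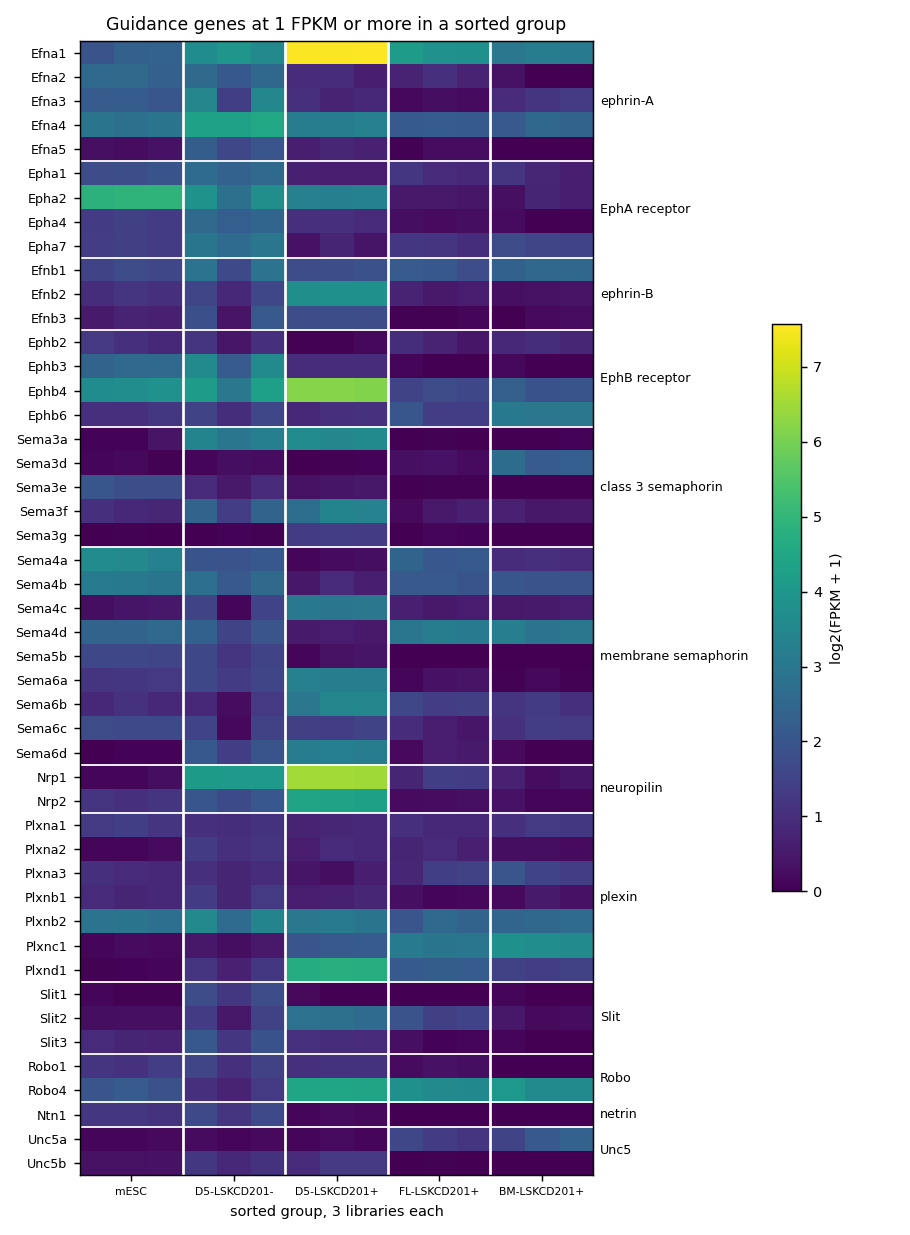
Level of the 47 guidance genes that averaged 1 FPKM or more in any sorted group, as log2(FPKM + 1) by color, with genes in rows and the 15 sorted-cell libraries in columns. Yellow and green mark high and dark purple low levels: Efna1, Nrp1, Ephb4 and Plxnd1 are brightest in the 3 D5-LSKCD201+ libraries, and FL-LSKCD201+ and BM-LSKCD201+ are dark for most genes.

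The comparison of D5-LSKCD201+ with D5-LSKCD201- asks how cells with and without CD201 differ within the same type of coculture. Both neuropilins, Plxnd1, Robo4, Slit2, Efna1, Efnb2, Ephb4 and the class 6 semaphorins Sema6a, Sema6b and Sema6d were higher in D5-LSKCD201+, while the other A-type ephrins, 3 EphA receptors, Ephb3, Ntn1, Slit1 and Sema4a, Sema4b and Sema4d were lower. Of 46 guidance genes tested, 15 were higher (32.6%, against 10.8% of the 13691 genes tested) and 14 lower (30.4%, against 13.9%), and 17 were not called. The median log2 difference was -0.24 over the 46 and -0.12 over all genes tested.

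**Figure D2:**
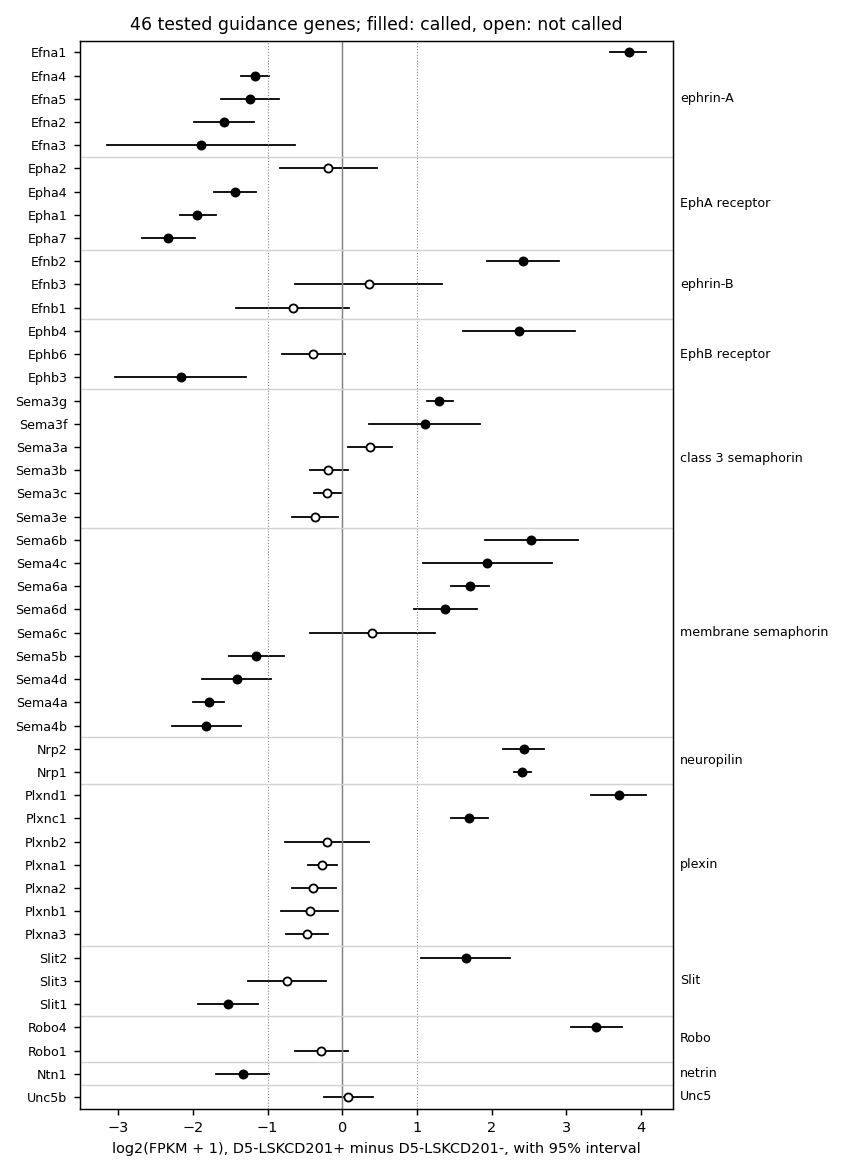
Log2 difference, D5-LSKCD201+ minus D5-LSKCD201-, of the 46 guidance genes tested, in log2(FPKM + 1), with 95% intervals as bars and filled points for called genes. The highest points are Efna1 at 3.83, Plxnd1 at 3.70 and Robo4 at 3.40, and the lowest are Epha7 at -2.33 and Ephb3 at -2.16.

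The ephrins split by member. Efna1, the GPI-anchored ephrin-A1 that binds EphA2, was at 185, 185 and 189 FPKM in D5-LSKCD201+ and at 11.8, 14.5 and 10.7 FPKM in D5-LSKCD201- (log2 difference 3.83 ± 0.10 SE, adjusted p = 2.1e-07). All 3 D5-LSKCD201+ libraries lay far above all 3 D5-LSKCD201- libraries. The other 4 ephrin-A genes moved the opposite way: Efna3 was lower by a log2 difference of -1.89 (adjusted p = 0.016), Efna2 of -1.58 (0.00014), Efna5 of -1.23 (0.00041) and Efna4 of -1.17 (1.3e-05). The call of Efna3 rested on few libraries, since it was at 9.87, 1.66 and 10.2 FPKM in D5-LSKCD201- and was lost without D5-LSKCD201- replicate 1 (adjusted p = 0.0539) or D5-LSKCD201+ replicate 2 (0.0527). Among the B-type ephrins, which have a cytoplasmic tail that signals back into their own cell, Efnb2 was at 12.6, 12.9 and 12.8 FPKM in D5-LSKCD201+ and at 2.02, 0.823 and 2.07 FPKM in D5-LSKCD201- (2.42 ± 0.20, adjusted p = 3.9e-05). The groups did not overlap, and without D5-LSKCD201- replicate 2 the difference was 2.17. Efnb1 (log2 difference -0.66, adjusted p = 0.102) and Efnb3 (0.35, adjusted p = 0.481) were not called. Efnb1 was called lower without D5-LSKCD201- replicate 2 (-1.07), and Efnb3 changed sign there (-0.18).

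Of the Eph receptors, Ephb4, the receptor of ephrin-B2 on venous endothelium, was the only one higher. It was at 72.1, 72.9 and 69.5 FPKM in D5-LSKCD201+ and at 17.1, 7 and 18.2 FPKM in D5-LSKCD201- (2.37 ± 0.31, adjusted p = 0.00042), and the groups did not overlap. Both members of the ephrin-B2 and EphB4 pair were thus higher in the same bulk population, which does not say whether the same cells held both. Epha7 was at 0.28, 0.705 and 0.341 FPKM in D5-LSKCD201+ and at 6.62, 5.2 and 6.81 FPKM in D5-LSKCD201- (-2.33 ± 0.15, adjusted p = 1e-05). Ephb3 was at 0.932, 0.936 and 0.931 FPKM against 11, 3.49 and 11.1 FPKM (-2.16 ± 0.37, adjusted p = 0.00156). Both were low in every D5-LSKCD201+ library, and Ephb3 was lowest in D5-LSKCD201- replicate 2. Epha1 (-1.94, adjusted p = 4.2e-06) and Epha4 (-1.44, adjusted p = 3.4e-05) were lower as well. Epha2, the main receptor of ephrin-A1, was at 8.87, 8.56 and 9.01 FPKM against 13.8, 5.94 and 12.5 FPKM and was not called (-0.19, 95% interval -0.83 to 0.46, adjusted p = 0.566). Its sign turned without D5-LSKCD201- replicate 1 (0.02).

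Both neuropilins and 2 of the 7 plexins tested were called higher. Nrp1, the neuropilin that also binds VEGF-A, was at 90.7, 90.7 and 89.6 FPKM in D5-LSKCD201+ and at 16.5, 16.1 and 15.9 FPKM in D5-LSKCD201- (2.41 ± 0.05, adjusted p = 7.7e-08). Nrp2 was at 20.5, 19.5 and 18.8 FPKM against 3.1, 2.28 and 3.19 FPKM (2.43 ± 0.12, adjusted p = 2.3e-06). For both neuropilins the groups were far apart with little spread within them. Plxnd1, the endothelial plexin that binds Sema3E without a neuropilin, was at 24.7, 26.4 and 25.5 FPKM against 1.27, 0.614 and 1.34 FPKM (3.70 ± 0.15, adjusted p = 1.2e-06). Plxnc1, a receptor of Sema7A, was higher by 1.70 (adjusted p = 8.4e-06), from 0.342 ± 0.112 FPKM in D5-LSKCD201- to 3.36 ± 0.32 FPKM in D5-LSKCD201+ (SD, n = 3). The other 5 plexins tested, Plxna1, Plxna2, Plxna3, Plxnb1 and Plxnb2, had log2 differences between -0.47 and -0.21 and were not called. Of these, Plxna3 (adjusted p = 0.00955), Plxna1 (0.0252), Plxna2 (0.0274) and Plxnb1 (0.0432) passed the adjusted p with lower values but not the fold threshold, and with a pseudocount of 0.1 FPKM Plxna3 was called lower.

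Of the class 3 semaphorins, the secreted ligands of these receptors, Sema3g rose from 0.0298 to 1.54 FPKM (1.3 ± 0.07, adjusted p = 5.2e-06) and Sema3f from 3.41 to 8.17 FPKM (1.10 ± 0.31, adjusted p = 0.017). The Sema3f call was lost without D5-LSKCD201+ replicate 2 (0.98), D5-LSKCD201+ replicate 3 (1.0, adjusted p = 0.06) or D5-LSKCD201- replicate 2 (0.76). Sema3a, a ligand of neuropilin-1, was high in both groups at 11.6, 10.3 and 11.3 FPKM and 9.59, 6.9 and 8.59 FPKM, and its difference of 0.37 was under the fold threshold (adjusted p = 0.0297). Sema3e, the ligand of plexin-D1, was at 0.34 ± 0.0576 FPKM in D5-LSKCD201+ and 0.737 ± 0.274 FPKM in D5-LSKCD201- (-0.36, adjusted p = 0.0396), so Plxnd1 was highest in cells with little Sema3e.

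Of 9 membrane-bound semaphorins tested, 4 were higher and 4 lower. Sema6a, Sema6b and Sema6d, of the class that binds A-type plexins, and Sema4c, a ligand of plexin-B2, were higher. Sema6b was at 7.07, 10.2 and 10.2 FPKM in D5-LSKCD201+ and at 0.829, 0.201 and 1.37 FPKM in D5-LSKCD201- (2.53 ± 0.26, adjusted p = 0.00011). Sema4c was at 7.19, 6.82 and 6.94 FPKM against 1.91, 0.0905 and 1.85 FPKM (1.94 ± 0.36, adjusted p = 0.00249). In both, D5-LSKCD201- replicate 2 was the lowest library. Sema6a differed by 1.71 and Sema6d by 1.38, and Sema6c was not called (0.40, and -0.05 without D5-LSKCD201- replicate 2). Sema4b (-1.82), Sema4a (-1.79), Sema4d (-1.41) and Sema5b (-1.15) were lower. Sema4d, which blood cells carry as CD100, was at 0.473, 0.503 and 0.426 FPKM in D5-LSKCD201+ and at 4.14, 1.92 and 2.96 FPKM in D5-LSKCD201-, with no overlap. Sema5b was not called after quantile normalization (-0.92).

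Slits and Robos changed one by one. Robo4, the Robo receptor of endothelium and of HSCs, was at 20.7, 20.9 and 20.2 FPKM in D5-LSKCD201+ and at 1.09, 0.676 and 1.46 FPKM in D5-LSKCD201- (3.40 ± 0.14, adjusted p = 1.4e-06). Slit2 was at 6.05, 5.9 and 5.25 FPKM against 1.49, 0.408 and 1.83 FPKM (1.65 ± 0.25, adjusted p = 0.00089), and Slit1 was lower (-1.53, adjusted p = 0.00017). Slit3, at 0.984 against 2.41 FPKM, passed the adjusted p but not the fold threshold (-0.74, adjusted p = 0.0201). With a pseudocount of 0.1 FPKM Slit3 was called lower. Robo1, the broadly expressed Slit receptor, was at 1.11 ± 0.0576 and 1.59 ± 0.486 FPKM and was not called. Netrin-1 was lower in D5-LSKCD201+ (Ntn1 at 0.122 ± 0.0422 against 1.86 ± 0.549 FPKM, -1.33, adjusted p = 0.00018), and its endothelial receptor Unc5b was near 1 FPKM in both (0.08, adjusted p = 0.621).

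**Figure D3:**
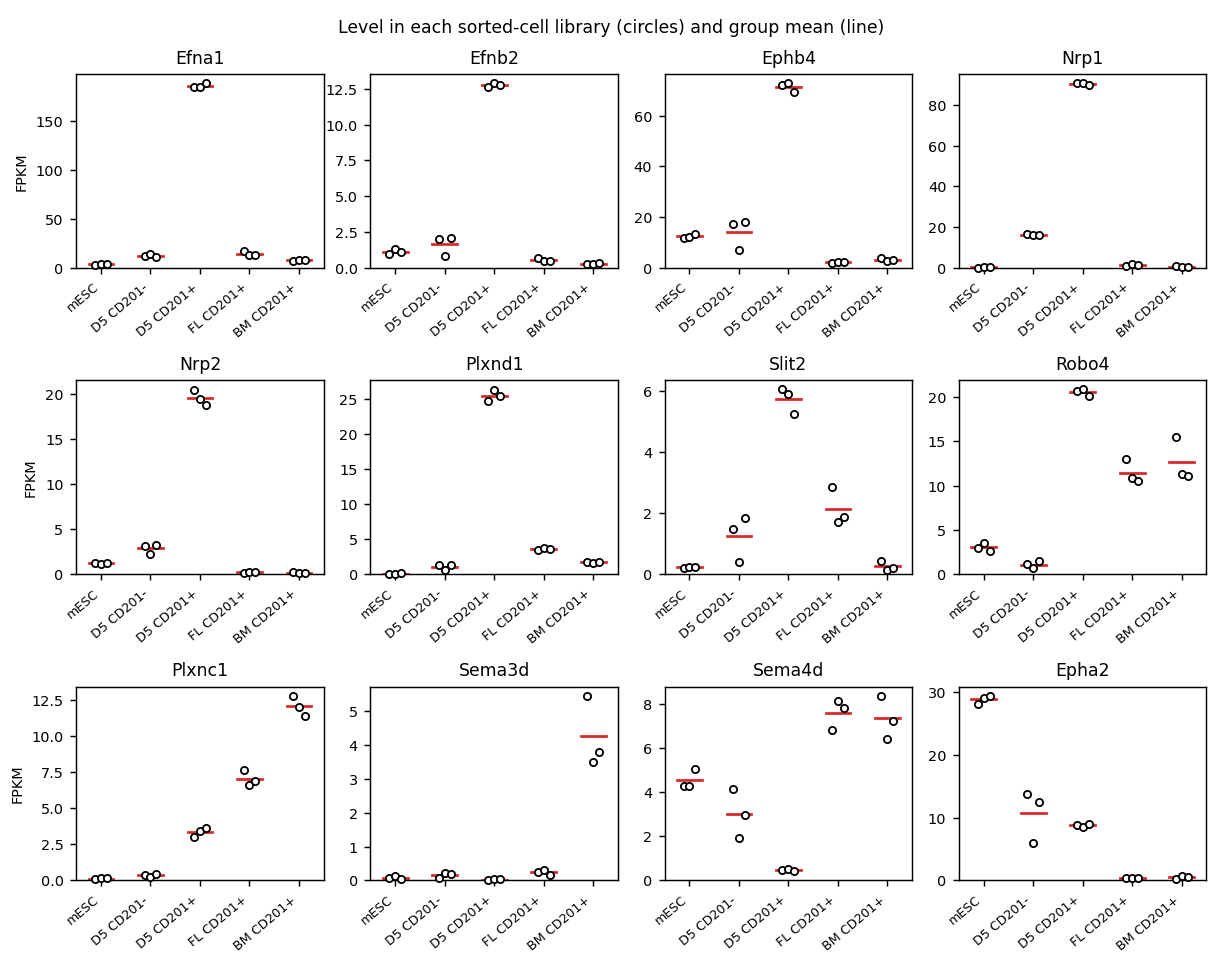
FPKM of 12 guidance genes in each sorted-cell library, 1 panel per gene and 1 point per library, with a line at the mean of 3. Efna1, Efnb2, Ephb4, Nrp1, Nrp2 and Plxnd1 are highest in D5-LSKCD201+, Robo4 is high in D5-LSKCD201+, FL-LSKCD201+ and BM-LSKCD201+, the Plxnc1 and Sema4d points of both groups from mice lie above those of D5-LSKCD201+, and Sema3d is near 0 outside BM-LSKCD201+.

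The sequences before the start sites of the 5 guidance genes with the largest rise in D5-LSKCD201+ are shown, since these genes were higher together. They come from RefSeq promoters on GRCm38.p6, read 5′ to 3′ on the gene's strand and shortened where an annotated exon begins. Capitals mark matches, on either strand, to the SOX core ACAAT, the ETS motif AGGAAG, the GATA motif AGATAA or the RBPJ motif TGGGAA, none of which overlapped another in these stretches. The Efna1 stretch is chr3:89279646-89279895 on the minus strand, the Plxnd1 stretch chr6:115995006-115995255 (minus), the Robo4 stretch chr9:37401722-37401896 (plus), the Sema6b stretch chr17:56133853-56134102 (minus) and the Nrp2 stretch chr1:62703067-62703284 (plus). The Efna1 and Sema6b stretches lie before an inner start, inside the span of the longer transcript of each gene.
Efna1: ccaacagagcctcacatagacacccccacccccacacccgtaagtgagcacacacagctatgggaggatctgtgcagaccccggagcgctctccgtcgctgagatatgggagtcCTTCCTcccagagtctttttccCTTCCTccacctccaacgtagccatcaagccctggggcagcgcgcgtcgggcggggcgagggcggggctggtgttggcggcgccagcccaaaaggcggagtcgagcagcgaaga
Plxnd1: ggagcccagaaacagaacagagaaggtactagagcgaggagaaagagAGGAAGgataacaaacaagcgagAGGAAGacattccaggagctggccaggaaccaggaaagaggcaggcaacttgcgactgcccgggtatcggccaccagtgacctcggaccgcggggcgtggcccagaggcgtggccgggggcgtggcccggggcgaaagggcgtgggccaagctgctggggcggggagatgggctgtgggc
Robo4: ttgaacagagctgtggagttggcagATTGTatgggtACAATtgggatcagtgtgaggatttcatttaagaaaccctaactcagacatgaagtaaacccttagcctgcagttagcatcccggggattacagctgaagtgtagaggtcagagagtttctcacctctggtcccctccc
Sema6b: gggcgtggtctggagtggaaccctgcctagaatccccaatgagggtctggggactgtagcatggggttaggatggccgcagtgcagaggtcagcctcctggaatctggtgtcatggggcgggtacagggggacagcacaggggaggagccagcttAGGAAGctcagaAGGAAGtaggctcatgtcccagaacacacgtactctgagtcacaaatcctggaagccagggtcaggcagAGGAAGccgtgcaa
Nrp2: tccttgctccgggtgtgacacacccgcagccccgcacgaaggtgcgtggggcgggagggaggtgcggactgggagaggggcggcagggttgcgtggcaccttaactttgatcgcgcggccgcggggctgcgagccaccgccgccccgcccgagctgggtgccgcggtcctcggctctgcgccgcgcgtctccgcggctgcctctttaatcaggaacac

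The ETS letters occurred 136 and 114 bases before the start in Efna1, 203 and 180 bases before it in Plxnd1, and 95, 83 and 14 bases before the inner start of Sema6b. The SOX letters occurred 225 and 214 bases before the RefSeq start of Robo4, and Nrp2 held none of the 4 motifs. The outer starts of Efna1 (59 bases outside exons) and Sema6b (250 bases) held none either. Such short motifs are common. Over whole windows of 300 bases, from 250 before to 50 after the start, the ETS motif was in 35.4% of 32851 promoters of all genes, in 37.3% of 75 promoters of 59 guidance genes, in 7 of 17 promoters (41.2%) of 13 genes higher in D5-LSKCD201+ and in 7 of 20 (35%) of 12 genes lower. The SOX core was in 31%, 18.7%, 11.8% and 20% of the same sets, the RBPJ motif in 25.6%, 22.7%, 17.6% and 30%, and the GATA motif in 11.2%, 4%, 0% and 5%. A match describes the letters only and is not a binding site.

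Coreceptors and intracellular effectors of the same systems were counted from 2 further lists. Of 20 coreceptors and further ligands, 11 could be tested in this comparison, 5 were higher in D5-LSKCD201+ and 0 lower. They were Kdr, the VEGF receptor that works with neuropilin-1, at 143, 134 and 133 FPKM against 7.45, 5.72 and 7.69 FPKM, Flrt2, an Unc5 ligand, at 25, 23.4 and 22.6 FPKM against 1.64, 1.04 and 1.51 FPKM, and Adam10, Itga1 and Itgb1. Of 33 effectors, 30 were tested, 10 were higher, such as Dpysl2 and Dpysl3 of the collapsin response mediator family, the Fes and Fyn kinases, Srgap1 and Vav3, and 3 were lower (Dpysl5, Enah and Pak1). Over all genes tested 10.8% were higher and 13.9% lower. The medians were 0.92 for the coreceptors and 0.71 for the effectors, against -0.12 over all genes.

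Cell type markers moved with these genes. All 10 endothelial markers were higher in D5-LSKCD201+ than in D5-LSKCD201-, where they summed to 147 to 156 FPKM. The 5 pluripotency markers were all lower. Of 12 stromal markers, 11 were tested, Lum and Postn were higher and Pdgfra lower, with sums of 101 to 106 FPKM against 44.6 to 78.2 FPKM. Of 6 mesoderm and early cardiac markers 4 were lower, with sums of 36.9 to 39.3 FPKM against 34.1 to 73.5 FPKM, and of 9 hematopoietic markers 8 were tested, 4 were higher and Gata1 lower, with sums of 446 to 450 FPKM against 98.2 to 102 FPKM. Of 5 hepatoblast markers 2 were tested and both, Apoa1 and Ttr, were lower, with sums of 0.675 to 0.954 FPKM against 4.86 to 7.62 FPKM. Of the neural genes, Nes was higher (5.27 to 5.74 FPKM against 1.17 to 2.08 FPKM) and Tubb3 lower (7.06 to 8.09 FPKM against 26.7 to 28.2 FPKM). Of 5 preadipocyte markers 4 were tested and Lpl and Pparg were higher, with sums of 35.4 to 37.8 FPKM against 12.3 to 16.2 FPKM. Their part in the differences of the guidance genes was not tested.

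Against mESC, the starting cells, D5-LSKCD201+ held more of the same vascular receptors and less of several semaphorins and Eph receptors. Of 43 guidance genes tested, 17 were higher (39.5%, against 19.5% of 13441 genes) and 11 lower (25.6%, against 18.1%), with medians of 0.15 and -0.07. Some of the genes tested passed the filter through 1 group alone. Without the filter 28 of 66 were called in either direction (42.4%, against 20.9% of all genes). Nrp1 was at 0.0773, 0.0827 and 0.207 FPKM in mESC (6.35 ± 0.07, adjusted p = 8.3e-12), Efna1 at 2.83, 3.99 and 4.25 FPKM (5.33 ± 0.10, adjusted p = 2.4e-10) and Plxnd1 at 0.0386, 0.0571 and 0.0825 FPKM (4.65 ± 0.07, adjusted p = 4.9e-11). For these genes every mESC library was far under every D5-LSKCD201+ library. The 2 groups did not overlap, in either direction, in 86.1% of all genes tested. Sema3a, at 0.0603, 0.0582 and 0.332 FPKM in mESC, was higher by 3.40 (adjusted p = 4.8e-09) and Efnb2, at 0.984, 1.27 and 1.09 FPKM, by 2.70 (adjusted p = 2.2e-09). Sema4a, a semaphorin known from immune cells, went the other way: 11.5, 10.8 and 9.06 FPKM in mESC against 0.104, 0.166 and 0.218 FPKM in D5-LSKCD201+ (-3.29 ± 0.10, adjusted p = 3.1e-09). Sema4b (-2.35), Sema4d (-1.91), Efna2 (-1.68) and Epha2 (-1.61) were lower too, and Epha2 was the guidance gene with the highest level in mESC, at 28.1, 29.1 and 29.4 FPKM. Ntn1, at -1.0, lay on the fold threshold and lost its call after quantile normalization or without D5-LSKCD201+ replicate 1 or 3 or mESC replicate 1 or 2. All 10 endothelial markers were higher in D5-LSKCD201+ than in mESC, where they summed to 57.3 to 62.4 FPKM, all 5 pluripotency markers were lower, 9 of 10 stromal markers tested were higher (9.23 to 10.2 FPKM summed in mESC), and so were all 6 hematopoietic and 3 of 4 preadipocyte markers tested. Of 6 mesoderm and early cardiac markers 2 were tested and Gata4 was higher, with sums of 36.9 to 39.3 FPKM against 2.7 to 3.01 FPKM. Of the neural genes, Nes was higher and Neurod1, Pax6 and Tubb3 were lower than in mESC. Their part in these differences was not tested.

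D5-LSKCD201- against mESC gave 11 higher (24.4% of 45 tested, against 10.9% of 13596 genes) and 3 lower (6.67%, against 3.48%), with medians of 0.36 and 0.05. Some of the genes tested passed the filter through 1 group alone. Without the filter 14 of 66 were called in either direction (21.2%, against 7.71% of all genes). The 11 were Nrp1 (3.93 ± 0.10, adjusted p = 3.8e-07), Sema3a (3.02 ± 0.15, adjusted p = 5.4e-06), Sema6d (1.76), Efna5 (1.63), Slit1 (1.52), Efna1 (1.51), Efna4 (1.51), Epha7 (1.46), Sema3f (1.15), Epha4 (1.07) and Plxna2 (1.01). Sema4a (-1.51), Epha2 (-1.42) and Sema3e (-1.10) were lower. This count turned on 1 library: without D5-LSKCD201- replicate 2, 19 were higher (against 11.4% of all genes), with Efna3, Efnb1, Efnb3, Ephb3, Plxnd1, Sema4c, Slit2 and Slit3 added, and Sema3e was not called. Epha4, Plxna2 and Sema3f were near the fold threshold and were not called without D5-LSKCD201- replicate 1 or after quantile normalization. Efnb2 (0.28, adjusted p = 0.281) and Ephb4 (0.07, adjusted p = 0.861) were not called. Both D5 comparisons with mESC use the same 3 mESC libraries, and the 4 comparisons of D5-LSKCD201+ use the same 3 D5-LSKCD201+ libraries. Of the 5 pluripotency markers, Esrrb and Sox2 were lower in D5-LSKCD201- than in mESC and the other 3 were not called. Of the markers tested, 7 of 10 endothelial, 8 of 10 stromal, 6 of 8 hematopoietic, 5 of 5 mesoderm and early cardiac, 2 of 4 preadipocyte and 2 of 2 hepatoblast markers were higher in D5-LSKCD201-, and the neural genes Neurod1 and Pax6 were lower. Their part in these differences was not tested.

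Compared with LSKCD201+ cells of the fetal liver, D5-LSKCD201+ had more RNA of both neuropilins, Ephb4, 4 of 7 ephrins tested (Efna1, Efna4, Efnb2 and Efnb3), Sema3a, Sema3f and Sema3g, and Sema6a, Sema6b and Sema6d. Of 38 guidance genes tested, 18 were higher (47.4%, against 15.1% of 13627 genes) and 4 lower (10.5%, against 19.6%). With no filter 22 of 66 were called in either direction (33.3%, against 19.6% of all genes). With a pseudocount of 0.1 FPKM the lower were 7, Epha7, Plxna3 and Plxnc1 added, against 25.1% of all genes. The median over the genes tested, which include genes that passed the filter through D5-LSKCD201+ alone, was 0.81 against -0.16 over all genes, and with no filter it was 0.34 against -0.03. Nrp1 was at 0.732, 1.66 and 1.5 FPKM in FL-LSKCD201+ (5.34 ± 0.16, adjusted p = 3.4e-07), Ephb4 at 1.95, 2.29 and 2.13 FPKM (4.54 ± 0.07, adjusted p = 4.5e-08) and Nrp2 at 0.159, 0.201 and 0.232 FPKM (4.10 ± 0.08, adjusted p = 6.8e-08). No library of either group came near the other for these receptors. Over all genes tested, 76.6% had no overlap between the 2 groups, in either direction. Efna1, at 16.8, 13.1 and 12.9 FPKM in FL-LSKCD201+, was higher in D5-LSKCD201+ by 3.63 ± 0.11 (adjusted p = 2.9e-07), and Sema3a, at 0 to 0.0232 FPKM there, by 3.58 ± 0.08 (adjusted p = 1.2e-07). Efnb2, at 0.679, 0.436 and 0.489 FPKM, was higher by 3.17 ± 0.09 (adjusted p = 2.6e-07). The 4 lower were Sema4d (-2.55, at 6.81, 8.14 and 7.81 FPKM in FL-LSKCD201+), Sema4a (-2.01), Sema4b (-1.38) and Unc5a (-1.22). Unc5b, at 0.903, 1.41 and 1.39 FPKM in D5-LSKCD201+ and at 0 to 0.0275 FPKM in FL-LSKCD201+, was called higher (1.13). Without D5-LSKCD201+ replicate 2 or 3 it averaged under the filter of 0.5 FPKM and was not tested.

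Against bone marrow LSKCD201+ cells, 18 of 38 tested were higher (47.4%, against 17.5% of 13775 genes) and 8 lower (21.1%, against 27.2%), with medians of 0.92 and -0.23, or 0.33 and -0.02 with no filter. The genes tested include some that passed the filter through D5-LSKCD201+ alone. With no filter 26 of 65 were called in either direction (40%, against 25.9% of all genes). Nrp1 was at 0.629, 0.196 and 0.338 FPKM in BM-LSKCD201+ (6.05 ± 0.11, adjusted p = 7.6e-09), Efna1 at 7.03, 8.21 and 7.75 FPKM (4.44 ± 0.06, adjusted p = 2.5e-09) and Nrp2 at 0.281, 0.0638 and 0.0905 FPKM (4.17 ± 0.10, adjusted p = 2.1e-08). Ephb4, at 3.9, 2.78 and 2.87 FPKM, was higher in D5-LSKCD201+ by 4.13 ± 0.10 (adjusted p = 2.8e-08), and Sema3a by 3.57 ± 0.09 (adjusted p = 2.2e-08). Efnb2 was at 0.247, 0.264 and 0.314 FPKM in BM-LSKCD201+ (3.43 ± 0.08, adjusted p = 1.5e-08), and Plxnd1 at 1.79, 1.59 and 1.74 FPKM (3.29). Robo1, Sema3g and Unc5b, called higher, were listed at 0 in every BM-LSKCD201+ library. Without D5-LSKCD201+ replicate 2 or 3, Robo1 and Unc5b averaged under the filter of 0.5 FPKM and were not tested. The same held for Robo1 without D5-LSKCD201+ replicate 1. The receptors and ligands that were lower in D5-LSKCD201+ were Sema4d (-2.50), Sema3d (-2.34), Ephb6 (-2.05), Unc5a (-1.85), Plxnc1 (-1.58), Sema4b (-1.29), Plxna3 (-1.19) and Epha7 (-1.11). Sema3d, a secreted semaphorin, was at 5.45, 3.51 and 3.8 FPKM in BM-LSKCD201+ and at 0, 0.031 and 0.0477 FPKM in D5-LSKCD201+. Ephb6, an Eph receptor without kinase activity, was at 7.35, 7.07 and 7.24 FPKM against 0.799, 1.04 and 1.12 FPKM. Both groups were apart in each, as they were, in either direction, in 85.3% of all genes tested. After quantile normalization Epha7, Plxna3 and Sema4b were not called, which left 5 lower.

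Robo4 and Plxnb2 were expressed in all 3 LSKCD201+ populations with differences under the fold threshold. Robo4 was at 13, 10.9 and 10.5 FPKM in FL-LSKCD201+ and at 15.5, 11.3 and 11.1 FPKM in BM-LSKCD201+, where it was the guidance gene with the highest mean, and the D5-LSKCD201+ libraries lay above them by log2 differences of 0.80 and 0.68 (adjusted p = 0.00021 and 0.00116). Plxnb2, a receptor of class 4 semaphorins, was at 7 ± 0.495 FPKM in D5-LSKCD201+, 4.09 ± 1.03 FPKM in FL-LSKCD201+ and 4.88 ± 0.345 FPKM in BM-LSKCD201+, with differences of 0.67 and 0.44. The endothelial markers were higher in D5-LSKCD201+ than in FL-LSKCD201+ for 9 of 10 and than in BM-LSKCD201+ for 10 of 10. Cdh5, which encodes VE-cadherin, was at 67.6 to 73.6 FPKM in D5-LSKCD201+, 0.733 to 1.6 FPKM in FL-LSKCD201+ and 0 to 0.0645 FPKM in BM-LSKCD201+. Of 9 hematopoietic markers Itga2b was higher in D5-LSKCD201+ in both comparisons, and 4 were lower against FL-LSKCD201+ and 7 against BM-LSKCD201+, with sums of 446 to 450 FPKM in D5-LSKCD201+, 593 to 681 FPKM in FL-LSKCD201+ and 1215 to 1280 FPKM in BM-LSKCD201+. The 5 hepatoblast markers, all lower than in FL-LSKCD201+, summed to 353 to 531 FPKM in FL-LSKCD201+ and to 0.675 to 0.954 FPKM in D5-LSKCD201+, and the 12 stromal markers, of which 7 were higher against FL-LSKCD201+ and 8 against BM-LSKCD201+, to 18.3 to 20.2 FPKM in FL-LSKCD201+, to 11.8 to 13.2 FPKM in BM-LSKCD201+, with Lum at 0, and to 101 to 106 FPKM in D5-LSKCD201+. Of 4 preadipocyte markers tested, Fabp4, Lpl and Pparg were higher and Cebpa lower in both comparisons, with sums of 35.4 to 37.8 FPKM in D5-LSKCD201+, 11.7 to 12.6 FPKM in FL-LSKCD201+ and 40.8 to 47.2 FPKM in BM-LSKCD201+. Gata4, the 1 mesoderm and early cardiac marker tested, was higher in both, and the 6 markers of that list summed to 36.9 to 39.3 FPKM in D5-LSKCD201+ and to at most 0.214 FPKM in any FL-LSKCD201+ or BM-LSKCD201+ library. The pluripotency markers tested, Pou5f1 and Zfp42, were higher in both, with list sums of 5.67 to 5.94 FPKM against 1.06 to 1.82 FPKM in FL-LSKCD201+ and 0 to 1.67 FPKM in BM-LSKCD201+. Afp, the 1 hepatoblast marker tested against BM-LSKCD201+, was lower in D5-LSKCD201+. The neural genes Nes and Tubb3 were higher in D5-LSKCD201+ in both comparisons. Their part was not tested.

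**Figure D4:**
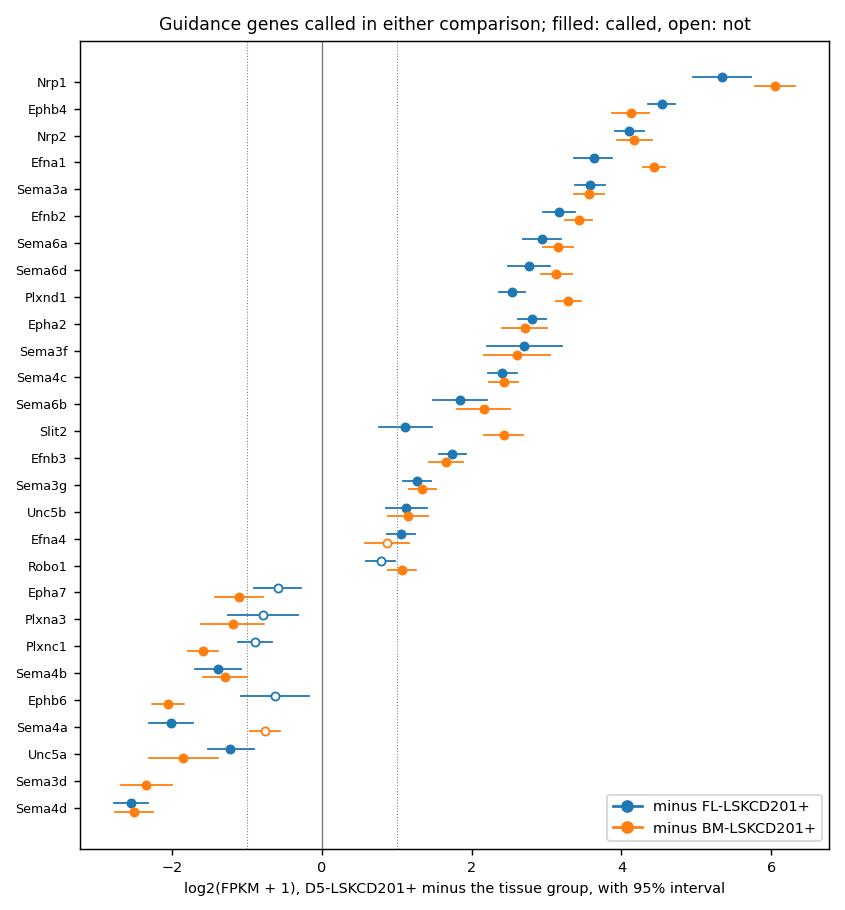
Log2 difference in log2(FPKM + 1) of D5-LSKCD201+ minus FL-LSKCD201+ and of D5-LSKCD201+ minus BM-LSKCD201+, for guidance genes called in either, with 95% intervals as bars and filled points for called genes. Nrp1, Ephb4 and Nrp2 lie above 4 in both and Sema4d lies under -2 in both, and both sets of points use the same D5-LSKCD201+ libraries.

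Coreceptors and effectors were counted here too. Of 12 coreceptors tested, 7 were higher against each mouse population (Flrt2, Flrt3, Itga1, Itgb1, Kdr, Neo1 and Rgmb), and Cd72, a B cell receptor of Sema4D, was lower against BM-LSKCD201+. Of the effectors, 10 of 29 were higher and 4 lower (Evl, Fyn, Pak1 and Vav3) against FL-LSKCD201+, and 8 of 30 were higher and 3 lower (Ablim1, Fyn and Pak1) against BM-LSKCD201+. Over all genes tested 15.1% were higher and 19.6% lower against FL-LSKCD201+, and 17.5% and 27.2% against BM-LSKCD201+. The medians were 1.49 and 1.68 for the coreceptors and 0.15 and 0.01 for the effectors, against -0.16 and -0.23 over all genes.

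Between the mouse populations 4 guidance genes passed both thresholds. In FL-LSKCD201+ against BM-LSKCD201+, 24 were tested, 2 were higher (8.33%, against 7.78% of 13503 genes) and 2 lower (8.33%, against 11.3%), which is near the share of all genes, with medians of -0.21 and -0.13. Without the filter 4 of 64 were called in either direction (6.25%, against 10.9% of all genes). Slit2 was at 2.86, 1.7 and 1.88 FPKM in FL-LSKCD201+ and at 0.415, 0.145 and 0.202 FPKM in BM-LSKCD201+ (1.32 ± 0.17, adjusted p = 0.00062). Sema4a was at 4.47, 3.16 and 3.46 FPKM against 0.966, 1.02 and 0.909 FPKM (1.25 ± 0.14, adjusted p = 0.00028). Sema3d, at 0.236, 0.302 and 0.166 FPKM in FL-LSKCD201+, was lower by -2.07 ± 0.16 (adjusted p = 5.6e-05), and Ephb6, at 3.1, 1.62 and 1.65 FPKM, by -1.43 ± 0.19 (adjusted p = 0.00062). In these 4 genes the libraries of the groups did not overlap, as in 63.5% of all genes tested, and FL-LSKCD201+ replicate 1 was highest of its group for Slit2, Sema4a and Ephb6. With the replicate numbers as a block the same 4 were called. A further 10 passed the adjusted p but not the fold threshold (Efna1, Efna3, Efnb1, Epha7, Ephb4, Nrp1, Plxnc1, Plxnd1, Sema6c and Unc5a), so that in all 58.3% of the 24 passed it, against 55.1% of all genes. With a pseudocount of 0.1 FPKM 4 were higher and 4 lower (33.3% called, against 26.4% of all genes). Efnb2 was under the level tested in this comparison. Robo4 (-0.12, 95% interval -0.48 to 0.23) and Sema4d (0.04, -0.26 to 0.35) were not called, and both changed sign in at least 1 alternative. All 5 hepatoblast markers were higher in FL-LSKCD201+ (353 to 531 FPKM summed, against 6.07 to 9.78 FPKM in BM-LSKCD201+, with Serpina1a at 0), 4 of 10 endothelial markers were higher, and of 9 hematopoietic markers 1 was higher and 4 were lower. The 5 preadipocyte markers summed to 11.7 to 12.6 FPKM in FL-LSKCD201+, with Adipoq at 0, and to 40.8 to 47.2 FPKM in BM-LSKCD201+, with Lpl higher and Cebpa lower in FL-LSKCD201+. Of the stromal markers, 5 were tested, Postn was higher and Pdgfrb lower, and the neural gene Nes was higher. Their part in these differences was not tested.

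The coculture libraries are total cells, and the question is how those on OP9 differed from those on gelatin. The study's text does not say whether OP9 cells were removed, so their own RNA may be among the OP9 values. Its part was not tested. Of the guidance genes, 48 of 68 were at a mean of 1 FPKM or more on OP9 (70.6%, against 61.4% of the 19321 genes left without the 3578 that the table leaves blank) and 45 on gelatin (66.2%, against 59.9%), and 17 were under 1 FPKM in both. At 5 FPKM or more the guidance genes were 29 on OP9 (42.6%, against 43.8%) and 26 on gelatin (38.2%, against 42.7%). Their FPKM summed to 514, 506 and 375 on OP9 and to 525, 509 and 454 on gelatin, with 3D+OP9 replicate 3 lowest. The highest were Epha2 on OP9 and Epha1 on gelatin. Of 57 tested, only Plxnd1 was higher on OP9 (1.75%, against 2.11% of 12958 genes) and 3 were lower, all semaphorins (5.26%, against 0.509%), with medians of 0.05 and 0.01. Without the filter 4 of 68 were called in either direction (5.88%, against 1.61% of all genes).

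Plxnd1 was at 20.18, 20.14 and 13.81 FPKM on OP9 and at 5.52, 3.12 and 3.49 FPKM on gelatin (1.93 ± 0.21, adjusted p = 0.00315). Its ligand Sema3e was at 1.15, 1 and 1.27 FPKM on OP9 and at 4.20, 6.95 and 5.70 FPKM on gelatin (-1.61 ± 0.17, adjusted p = 0.00276). The receptor was thus higher and its ligand lower on OP9, with no overlap in either. Of all genes tested, 28.7% had no overlap, in either direction. Sema3c, a secreted ligand that signals through neuropilins and plexin-D1, was at 0.68, 0.62 and 1.07 FPKM against 3.29, 3.56 and 3.06 FPKM (-1.27 ± 0.14, adjusted p = 0.00293). Sema6a, a membrane-bound ligand of plexin-A2 and plexin-A4, was at 10.64, 9.73 and 9.74 FPKM against 22.83, 25 and 26.54 FPKM (-1.22 ± 0.09, adjusted p = 0.00084). Every OP9 library was under every gelatin library for both. These 4 calls were kept without any 1 of the 6 libraries.

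Beyond these, 4 genes passed the adjusted p but not the fold threshold, so that, with the called genes, 14% of those tested passed it, against 6.88% of all genes. They were Plxnc1 (0.91), Robo4 (0.84) and Sema3f (0.59) with higher and Efna5 (-0.80) with lower values on OP9. Robo4 was at 1.21, 1.32 and 1.21 FPKM against 0.21, 0.32 and 0.24 FPKM, and Plxnc1 at 1.49, 1.48 and 1.70 FPKM against 0.30, 0.35 and 0.42 FPKM. Both are low genes, and with a pseudocount of 0.1 FPKM they passed both thresholds (1.93 and 1.86). Nrp1 was at 23.10, 25.85 and 9.60 FPKM on OP9 and at 8.95, 5.66 and 6.03 FPKM on gelatin. The libraries did not overlap, but 3D+OP9 replicate 3 lay close to gelatin and Nrp1 was not called (1.29, adjusted p = 0.0736). Without that library Nrp1 was called (1.71, adjusted p = 0.00168), as were Unc5c (1.11), Ntn1 and Sema6d, so 5 guidance genes were then higher (14% called in either direction, against 3.45% of all genes). Epha1 was at 27.31, 25.37 and 12.41 FPKM against 46.77, 49.62 and 39.92 FPKM and was not called (-1.10, adjusted p = 0.0555). Efnb2 was at 40.58, 38.83 and 26.82 FPKM on OP9 and at 46.95, 47.90 and 29.91 FPKM on gelatin, with overlap and no call (-0.22, 95% interval -0.73 to 0.29, adjusted p = 0.606), and its receptor Ephb4 was not called either (0.24, adjusted p = 0.298).

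**Figure D5:**
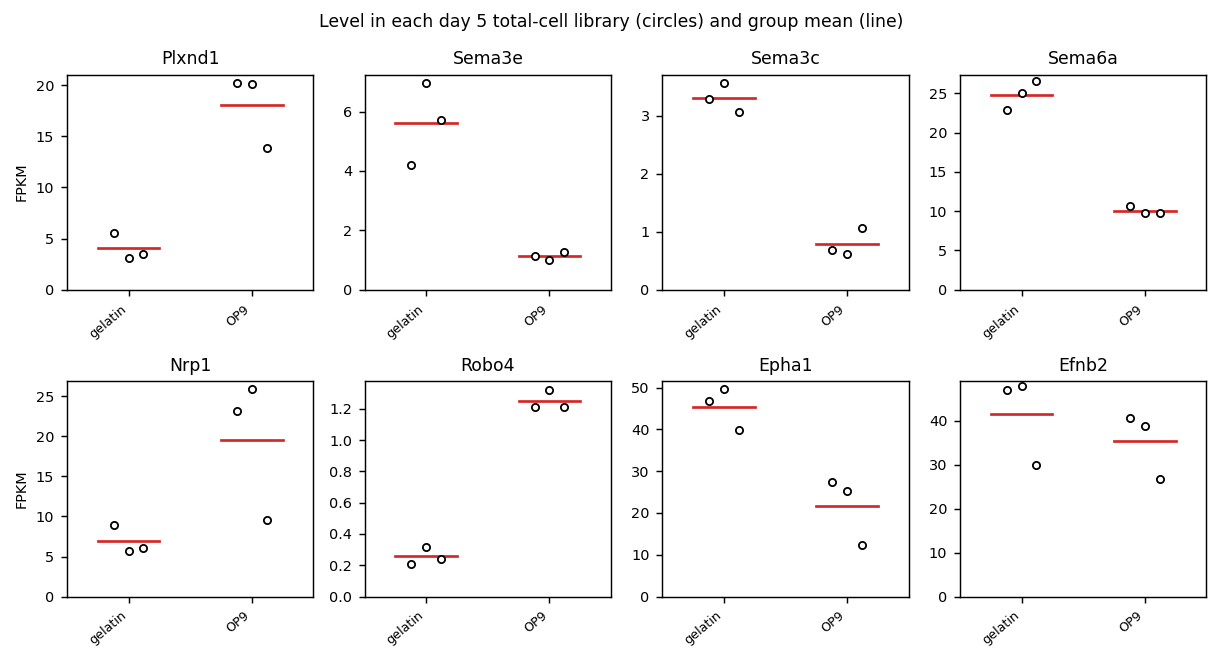
FPKM of 8 guidance genes in each coculture library, 1 panel per gene and 1 point per library, with a line at the mean of 3. Plxnd1 is higher on OP9 and Sema3e, Sema3c and Sema6a are lower, while Nrp1 and Epha1 have 1 OP9 library, replicate 3, apart from the other 2.

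Among the 14 coreceptors tested, Kdr was higher on OP9 (24.4, 29.2 and 17 against 13.4, 6.88 and 7.47 FPKM) and 0 were lower, and among the 31 effectors Vav3 was higher and 0 were lower, where 2.11% of all genes tested were higher and 0.509% lower. Of the 10 endothelial markers 8 were higher on OP9, where they summed to 127 to 150 FPKM against 21.4 to 38.3 FPKM on gelatin. Of 12 markers of OP9 or other stromal cells 11 were tested and Col1a2, Col3a1 and Postn were higher, with sums of 78.3 to 88.8 FPKM against 46 to 56.5 FPKM. Of 5 preadipocyte markers 4 were tested and Fabp4 was higher, with sums of 9.12 to 14.6 FPKM against 6.04 to 8.35 FPKM. Of 9 hematopoietic markers 7 were tested and 6 were higher, with sums of 41 to 48.8 FPKM against 8.93 to 11.9 FPKM. Of the 5 pluripotency markers, Esrrb and Zfp42 were higher on OP9, although the list summed to 509, 502 and 764 FPKM on OP9, highest in replicate 3, and to 830 to 910 FPKM on gelatin. The 6 mesoderm and early cardiac markers were tested and none was called by limma, with sums of 339, 325 and 148 FPKM on OP9 and of 370, 299 and 199 FPKM on gelatin, lowest in replicate 3 of each. Of 5 hepatoblast markers 2 were tested and neither was called, with sums of 0.85 to 2.11 FPKM on OP9, where Alb was at 0, and of 1.44, 0.68 and 18.1 FPKM on gelatin, where Alb and Serpina1a were at 0. Of 10 neural markers 7 were tested, Nes and Tubb3 among them, and none was called by limma. The part of these cell types in the differences of the guidance genes was not tested.

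Some guidance genes share exon bases with another gene. This held for 18 of the 68, and for 15 of them the other gene lies on the opposite strand, such as Epha1 with Zyx, Ephb4 with Zan and Unc5a with Hk3, and Efna3, Efna4, Plxna1, Plxnb1 and Sema4c with noncoding genes. Whether strand was used in the quantification is not given in the sources used here, and without it the RNA of such genes cannot be told apart where they overlap.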

How the data were processed

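RNA-seq values were FPKM per gene and library, as deposited by the authors. The study's methods give alignment to GRCm38 with HISAT2 (2.0.5) and assembly and quantification with StringTie (1.3.3), and the submitters' processing notes also name Cuffdiff 1.3.0 and, beside GRCm38, the build mm9. Which of these apply to the coculture table is not given in the sources used here. FPKM summed to 483263 to 508307 per coculture library and to 508622 to 620332 per sorted-cell library. Counts were not used here, so the sequencing depth is unknown and no counting interval is given. The coculture table left 3578 genes blank, none of them guidance genes.

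The sample labels gave each library its group and replicate. The rule for the guidance genes uses symbols and no measured value, but this gene set, the further lists and the tests were chosen with earlier results of these data known. No test crossed from 1 table to the other, because each had its own normalization. In each of 7 comparisons, log2(FPKM + 1) was tested, for genes averaging 0.5 FPKM or more, with limma 3.58.1 (trend, two-sided, R 4.3.3) over the 3 + 3 libraries, with Benjamini-Hochberg adjustment over all genes tested. Errors of log2 differences are SE, those of levels are SD (n = 3), and intervals are 95%. An exact permutation test (two-sided) of 3 libraries against 3 cannot go below 0.1. Full values were given for the called genes with the largest differences, for Efnb2 and for their binding partners. On simulated data with 200 genes changed by 2 on the log2 scale, the fit recovered 95.5% in D5-LSKCD201+ against D5-LSKCD201- (13691 genes) and 97.5% in 3D+OP9 against gelatin (12958 genes). The changed genes were drawn only from those with a mean log2(FPKM + 1) above 2. These rates therefore do not cover lower genes or smaller changes.

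All 7 comparisons were fitted without pairs. Same-numbered FL-LSKCD201+ and BM-LSKCD201+ libraries deviated weakly together over all genes (r = 0.24, 0.20 and 0.16). The same number was the best match for replicate 1 only, and fetal and adult cells are not from the same animals. Their numbers therefore do not establish pairs, and the replicate block served only as an alternative. Alternatives were a pseudocount of 0.1 FPKM, quantile normalization, no filter or a filter at 1 FPKM, the replicate block, a prior variance held constant, 1 fit over the 5 sorted groups, the adjusted p alone, leaving out each library, and, chosen after seeing the data, the closest replicates averaged. The summed level of the neural marker list is not reported here. Python 3.11.15 with pandas 2.3.3 and matplotlib 3.10.9 was used for levels, motifs and figures.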

Additional observations from a re-analysis of the deposited data

How the results depend on the processing

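Counts of guidance genes called moved by over 1.5 times in these cases. For 3D+OP9 against gelatin, the 1 gene higher became 3 with a pseudocount of 0.1 FPKM, 2 with the replicate block (which added Nrp1 and, among lower genes, Epha1) and 4 on the adjusted p alone (of all genes 3.19%, 2.28% and 4.61% were then higher, against 2.11%), and leaving out 1 library gave 1 to 5. For D5-LSKCD201+ against mESC, the 11 lower became 17 on the adjusted p alone (45.2% of all genes, against 18.1%). For D5-LSKCD201- against mESC, the 11 higher became 19 and the 3 lower became 5 on the adjusted p alone (32.2% and 22.4% of all genes, against 10.9% and 3.48%), and leaving out 1 library gave 8 to 19 higher and 2 to 4 lower. Against FL-LSKCD201+, the 4 lower in D5-LSKCD201+ became 7 with a pseudocount of 0.1 FPKM and 9 on the adjusted p alone (25.1% and 42% of all genes, against 19.6%), and against BM-LSKCD201+ the 8 lower became 5 after quantile normalization (21.9% of all genes, against 27.2%). For FL-LSKCD201+ against BM-LSKCD201+, the 2 higher and 2 lower became 4 and 4 with a pseudocount of 0.1 FPKM and 5 and 9 on the adjusted p alone (of all genes 10.1% and 16.2%, and 22.2% and 32.9%, against 7.78% and 11.3%). For D5-LSKCD201+ against D5-LSKCD201-, leaving out 1 library moved the counts by less than 1.5 times. It gave 14 to 15 higher and 13 to 15 lower, against 15 and 14. The median over the guidance genes also moved, from 0.92 to 2.82 against BM-LSKCD201+ with a pseudocount of 0.1 FPKM and to 0.33 with no filter, from 0.81 to 1.86 and 0.34 against FL-LSKCD201+, and from -0.21 to 0.01 with no filter in FL-LSKCD201+ against BM-LSKCD201+.

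Among the called genes, Efnb2 and the further genes followed under each alternative, the signs that changed were of genes not called. Plxna2 in 3D+OP9 against gelatin (0.21) was -0.09 and -0.03 without 3D+OP9 replicate 1 or 2, 0.74 without replicate 3, and -0.06 with the closest replicates averaged. In D5-LSKCD201+ against D5-LSKCD201-, leaving out 1 library gave -0.53 to 0.02 for Epha2 (0.02 without D5-LSKCD201- replicate 1), -0.18 to 0.68 for Efnb3, -0.05 to 0.63 for Sema6c and -0.02 to 0.19 for Unc5b (these 3 lowest without D5-LSKCD201- replicate 2). In D5-LSKCD201- against mESC, Efnb2 was -0.00 and Ephb4 -0.01 after quantile normalization, and Ephb4 was -0.11 and -0.15 without D5-LSKCD201- replicate 1 or 3, 0.48 without replicate 2 and -0.13 with the closest replicates averaged. In FL-LSKCD201+ against BM-LSKCD201+, Robo4 was 0.03 after quantile normalization and -0.21 to 0.02 without 1 library (0.02 without BM-LSKCD201+ replicate 1), and Sema4d was -0.00 without FL-LSKCD201+ replicate 2, -0.04 without BM-LSKCD201+ replicate 2, 0.13 without BM-LSKCD201+ replicate 1 and -0.03 with the closest replicates averaged. The cause of these changes was not tested.

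The replicate block changed no other call of a guidance gene. Same-numbered libraries of 3D+OP9 and gelatin correlated at 0.18, 0.07 and 0.29, so the numbers do not establish pairs there either. With no counts, the depth limits what can be said of genes under 1 FPKM.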
